A study of Danio rerio with 30 samples.

Results

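The genes described here encode the subunits of 3 families of ion channel, the potassium (*kcn*), sodium (*scn*) and calcium (*cacn*) channels, in the adult zebrafish telencephalon before and after a stab wound. A gene was taken when its single array symbol started with *kcn*, with *scn* and a number, or with *cacn*, and when its brightest probe set had a group mean above a linear intensity of 20 (4.32 on the log2 scale) in at least 1 group. Of 171 such symbols 125 passed, 80 of 114 potassium, 9 of 13 sodium and 36 of 44 calcium channel genes, among 14372 named genes above the same floor and 19260 in all. The floor was met in all 9 groups by 114 of the 125 and in some groups only by the other 11. The members nearest above it were *cacna2d3a*, with a highest group mean of 4.33, that of intact, and *scn1laa*, with 4.36, and the symbols nearest below it were *kcnk7*, at 4.28, and *cacng1b*, at 4.24. The rule used letter case, so that 2 genes above the floor whose symbols are in capitals were not members.

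The study set 2 stab wounds of the telencephalon side by side, a skull injury, made with a micro-knife driven down through the skull into the medial telencephalon, and a nostril injury, made with a glass capillary that reaches the telencephalon through the nostril, both in the 2 hemispheres. Affymetrix Zebrafish Gene 1.0 ST arrays were used to profile telencephalon RNA at 1, 2, 3 and 7 days post injury (dpi), with 3 samples in every injury group except the skull injury at 3 dpi, which had 4. Intact telencephalon, without injury, gave 4 samples, 1 of them hybridised on 2 arrays that were averaged. All fish were wild-type, with an age of 3 to 5 months in the labels, and no transgene entered these groups. By the study's methods fish were anaesthetised for the wound with MS-222 (Tricaine), an anaesthetic that blocks sodium channels, and no uninjured group anaesthetised as for the wound was among the samples. Its methods for tissue sections and cell sorting also give an MS-222 overdose at death. How the fish of the arrays were killed was not stated. The intact fish were not labelled as sham-operated, and neither the number of fish behind a sample nor whether samples came from separate fish was given, so that p-values measure the spread between these samples only.

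Channel families divide the work of electrical signalling. Sodium channel alpha subunits carry the upstroke of the action potential, voltage-gated potassium channels end it, leak (2-pore) and inward rectifier potassium channels hold the resting potential, and calcium channels turn depolarisation into calcium entry, which at nerve endings releases transmitter. The pore-forming subunits travel with auxiliary ones, the sodium channel beta subunits, the calcium channel beta and alpha2delta subunits and the potassium channel interacting proteins, and several *cacng* proteins escort AMPA-type glutamate receptors rather than calcium channels. In the brain neurons express most of these genes, whereas ependymoglia, the radial glia that serve as stem cells in the zebrafish telencephalon, depend on inward rectifiers such as Kir4.1 (*kcnj10*).

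All values are log2 intensities, and a difference of 1 is a doubling. Array medians lay between 4.22 and 4.35. Within 8 of the 9 groups samples correlated at 0.967 to 0.982 over the 40670 probe sets above the floor, whereas the 4 samples of the skull injury at 3 dpi correlated at 0.937 to 0.962, and the mean variance of the channel genes was 0.0953 there against 0.0276 to 0.0539 in the other groups. All 23 neuronal markers on the array were above the floor, as were all 13 of ependymoglia of this telencephalon RNA, while 6 of the 12 measured markers of skin, cartilage and muscle were not. Differences were tested with limma over all probe sets, and a change was called at a Benjamini-Hochberg adjusted p under 0.05 over the 40670. For each gene the SE and p used 1 estimate of spread shared by the 9 groups, not the spread of the groups compared. In comparisons with the skull injury at 3 dpi, whose samples varied more, both can therefore be too small.

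Over the 9 groups, 15 of the 125 channel genes varied by limma's F test at that threshold, 12% of them, against 12.5% of the named genes and 10.4% of all transcripts. The 5 with the smallest adjusted p were *kcnt1a* (0.00272), *cacng4b* (0.00481), *cacna1ib* (0.00515), *scn2b* (0.0123) and *kcnk10a* (0.0156), and 5 of the 15 were *cacng* genes. In the 12 comparisons together 16 genes were called at least once, 12.8%, against 11.9% of the named genes and 11.5% of all transcripts. The median change of the 125 genes from intact was -0.11 at 3 dpi in the skull group and 0.15 (skull) and 0.14 (nostril) at 7 dpi, where the named genes had medians of -0.04, 0.05 and 0.04. In the other 5 groups the median of the channel genes lay between -0.03 and 0.05. Since the arrays measured the whole telencephalon, fewer cells of a type and less RNA per cell cannot be told apart in any of these values.

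**Figure D1:**
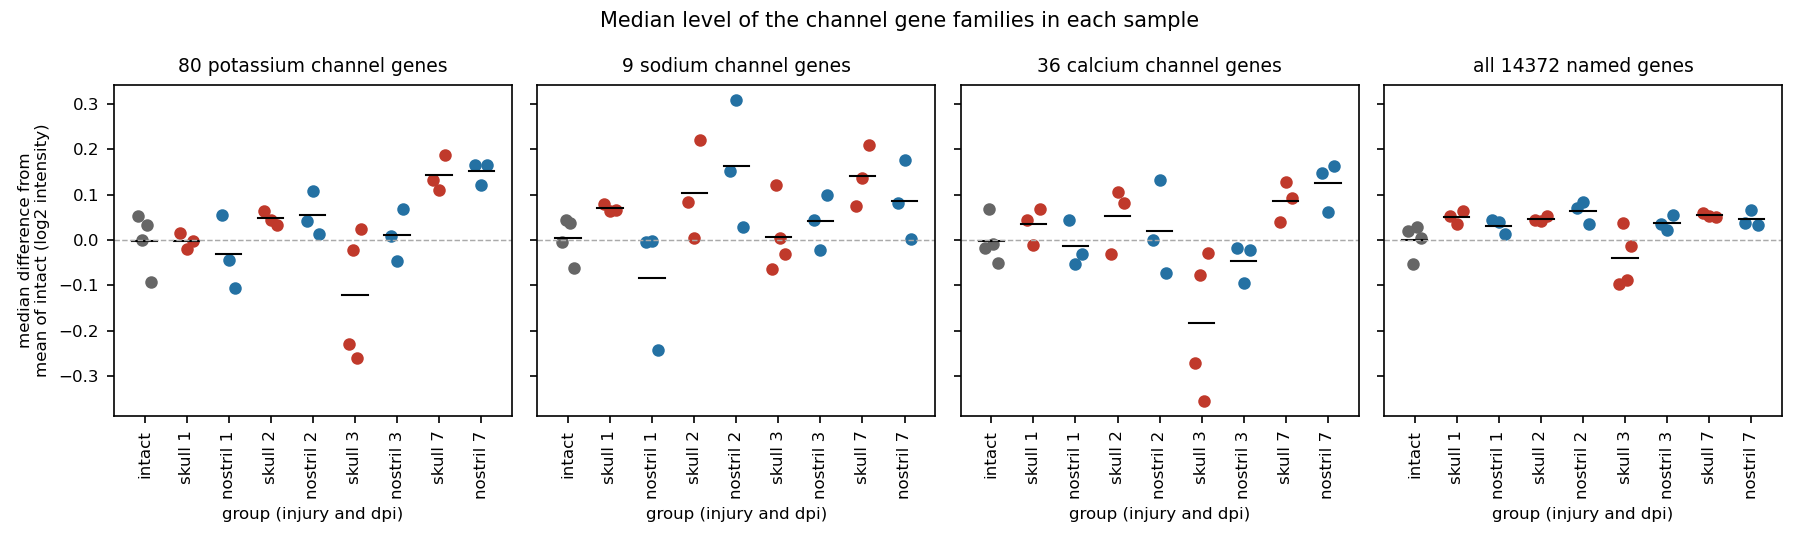
Median over the genes of a family of the difference from the mean of intact (y axis, log2 intensity) in every sample (points) of each group (x axis, injury and days post injury), with the group mean as a line, for the potassium, sodium and calcium channel genes and for all named genes. At 7 dpi the samples of both injuries lay between 0.11 and 0.19 for the potassium channel genes. At 3 dpi after skull injury 2 of the 4 samples lay far below the other 2 for the potassium and the calcium channel genes, but not for the sodium channel genes.

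**Figure D2:**
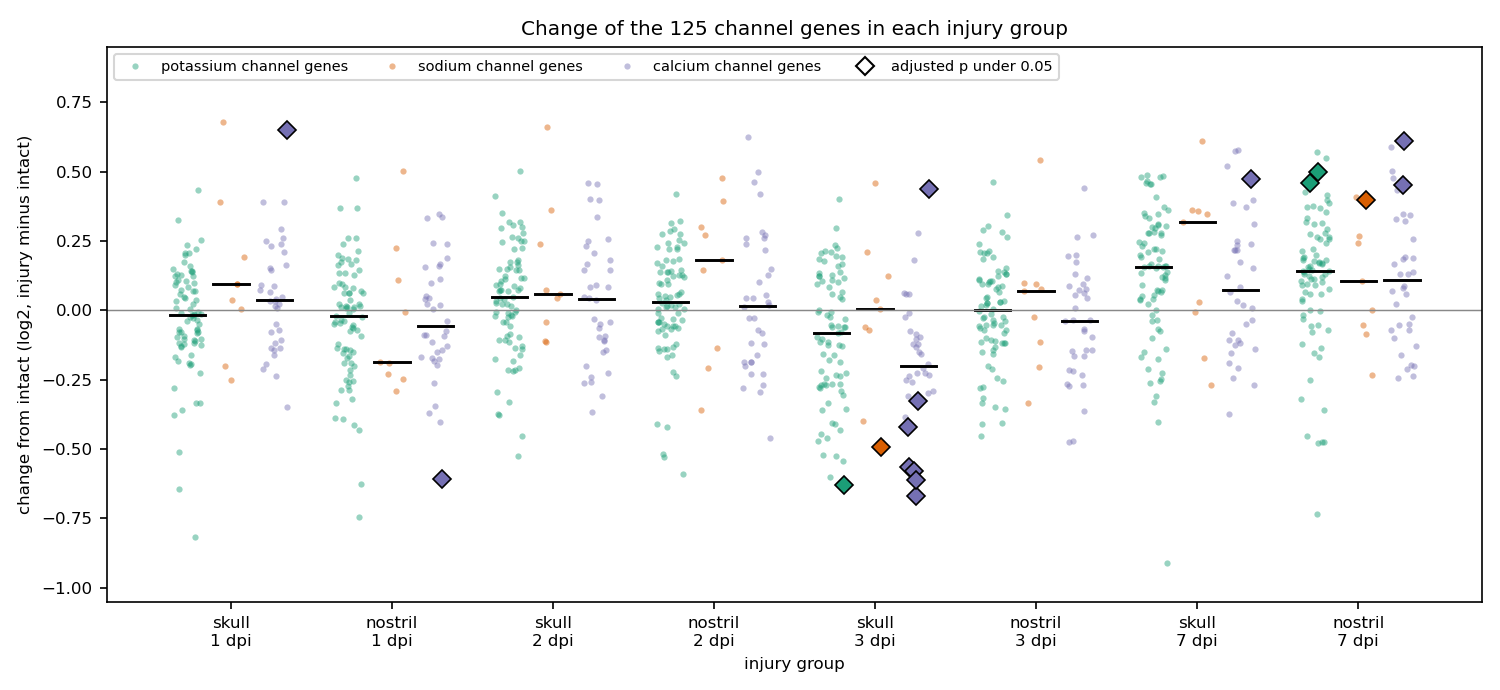
Change of each of the 125 channel genes from intact (y axis, log2) in the 8 injury groups (x axis), by family, with the median of each family as a line and genes called at an adjusted p under 0.05 as diamonds. The calls below 0 gather in the calcium channel genes of the skull injury at 3 dpi, and the calls at 7 dpi are all above 0.

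At 3 dpi after skull injury channel genes were lower on balance, and calcium channel genes most. Of the 125 genes 8 fell and 1 rose against intact, 7.20%, where 6.99% of the named genes and 7.93% of all transcripts were called in the same comparison, so that the share of channel genes stood close to the background. Of the 9 calls 7 were calcium channel genes, and the calcium family had a median of -0.20 with 30 of 36 genes below 0. The median was -0.08 over the potassium and 0.01 over the sodium channel genes. All 11 pore-forming alpha1 genes were below 0 and 4 of them fell, *cacna1ib* among them by its brightest probe set only, whereas 5 of 5 alpha2delta genes were below 0 and 1 fell. Of these 5, *cacna2d3a* met the floor on its intact mean, its highest, so its difference from intact could only be below 0. All transcripts together were shifted down too, with median differences from the intact mean of -0.086 to -0.035 in the skull samples. Transcripts below 0 thus outnumbered those above it in the background as well, and the share of named genes below 0 is not given here. Without the second skull sample the median of the 125 genes was -0.18. Leaving out each of the 8 samples of the 2 groups in turn gave medians from -0.176 to -0.075. The medians of the whole set, of the calcium family and of the alpha1 genes kept their sign with quantile normalisation or centring of the arrays.

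*cacna2d1a*, an alpha2delta subunit that carries calcium channels to the cell surface, had the smallest adjusted p of the set. Its level was 6.66, 6.73, 6.34 and 6.73 in the skull injury at 3 dpi, against 7.07, 7.35, 7.14 and 7.34 in intact telencephalon. The groups did not overlap, a pattern that 5.32% of the named genes showed in this direction and 5 of the 125 channel genes. The difference was -0.61 (SE 0.12, adjusted p = 0.00418), an intact level 1.53 times that after injury, and it stayed called without any single sample of the 2 groups, with adjusted p between 0.00309 and 0.0182. In the other 7 injury groups the difference lay between -0.18 and -0.07 and was not called.

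The alpha1 genes that fell belong to different classes of calcium channel. *cacna1da*, the L-type Cav1.3 pore, had 6.55, 7.19, 6.89 and 7.37 in the skull injury at 3 dpi and 7.47, 7.88, 7.39 and 7.56 in intact samples, without overlap, a difference of -0.58 (SE 0.14, adjusted p = 0.0135). *cacna1ab*, the P/Q-type Cav2.1 pore of transmitter release, had 6.83, 6.82, 6.40 and 7.11 in injured and 7.06, 7.81, 7.20 and 7.35 in intact samples. *cacna1ba*, the N-type Cav2.2 pore, also used at nerve endings, had 5.38, 6.38, 6.12 and 6.72 against 6.88, 7.25, 6.49 and 6.65 in intact. In both genes the fourth injured sample reached into the intact range, and the differences were -0.56 (SE 0.15, adjusted p = 0.0251) and -0.67 (SE 0.19, adjusted p = 0.0322). *cacna1c*, the L-type Cav1.2 pore, was not called at -0.38 (adjusted p = 0.067) although its groups did not overlap, and neither were the T-type *cacna1g*, at -0.23, and the second P/Q-type gene *cacna1aa*, at -0.26. Without the first injured sample *cacna1ba* was at -0.41 and no longer called, *cacna1g* at -0.14 and *cacna1aa* at -0.006, while without the fourth *cacna1aa* was at -0.42. Without intact replicate 2 *cacna1g* was at -0.13.

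The fourth alpha1 call, *cacna1ib*, a T-type Cav3.3 pore, had 5.70, 5.37, 5.34 and 5.36 after skull injury at 3 dpi, against 5.94, 5.97, 5.59 and 5.94 in intact samples (difference -0.42, SE 0.12, adjusted p = 0.0388). The groups overlapped at 1 sample each. The array has 3 probe sets for this gene, and the other 2, dimmer ones, gave 0.01 and -0.09 in the same comparison with adjusted p of 0.98 and 0.875, so the call rests on 1 probe set.

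Among the auxiliary and AMPA receptor related genes, *cacng2a*, whose mammalian counterpart stargazin escorts AMPA receptors, had 8.50, 8.78, 8.49 and 8.59 in the skull injury at 3 dpi and 8.91, 8.99, 9.07 and 8.70 in intact samples (difference -0.33, SE 0.10, adjusted p = 0.0483). The only rise was in *cacnb2a*, a beta subunit, with 7.65, 7.88, 8.11 and 7.80 after injury and 7.78, 7.38, 7.43 and 7.10 in intact (difference 0.44, SE 0.13, adjusted p = 0.0389). In both genes 1 injured sample lay inside the intact range. The other 6 beta subunit genes had differences between -0.30 and 0.18 and were not called, among them *cacnb4a* at -0.16.

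Outside the calcium family 2 genes fell. *scn1lab*, a Nav1.1-type sodium channel alpha subunit whose loss causes seizures in zebrafish larvae, had 7.51, 7.94, 7.61 and 8.14 in the injured samples, against 7.98, 8.55, 8.27 and 8.38 in intact samples, a difference of -0.49 (SE 0.14, adjusted p = 0.0325). *kcnj19b*, an inward rectifier, had 6.96, 6.96, 7.60 and 7.09 against 7.89, 7.58, 7.84 and 7.82 in intact samples, a difference of -0.63 (SE 0.16, adjusted p = 0.0171). In both genes 1 injured sample reached into the intact range. *kcnj19b* was the 1 call among 80 potassium channel genes, 16 of which (20%) had an unadjusted p under 0.05 below intact and 3 (3.75%) above it, against 15% and 8.6% of the named genes. The fast Kv3.1 gene *kcnc1a* was at -0.27 (adjusted p = 0.099) and the Nav1.6 gene *scn8aa* at -0.40 (adjusted p = 0.103), neither called.

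**Figure D3:**
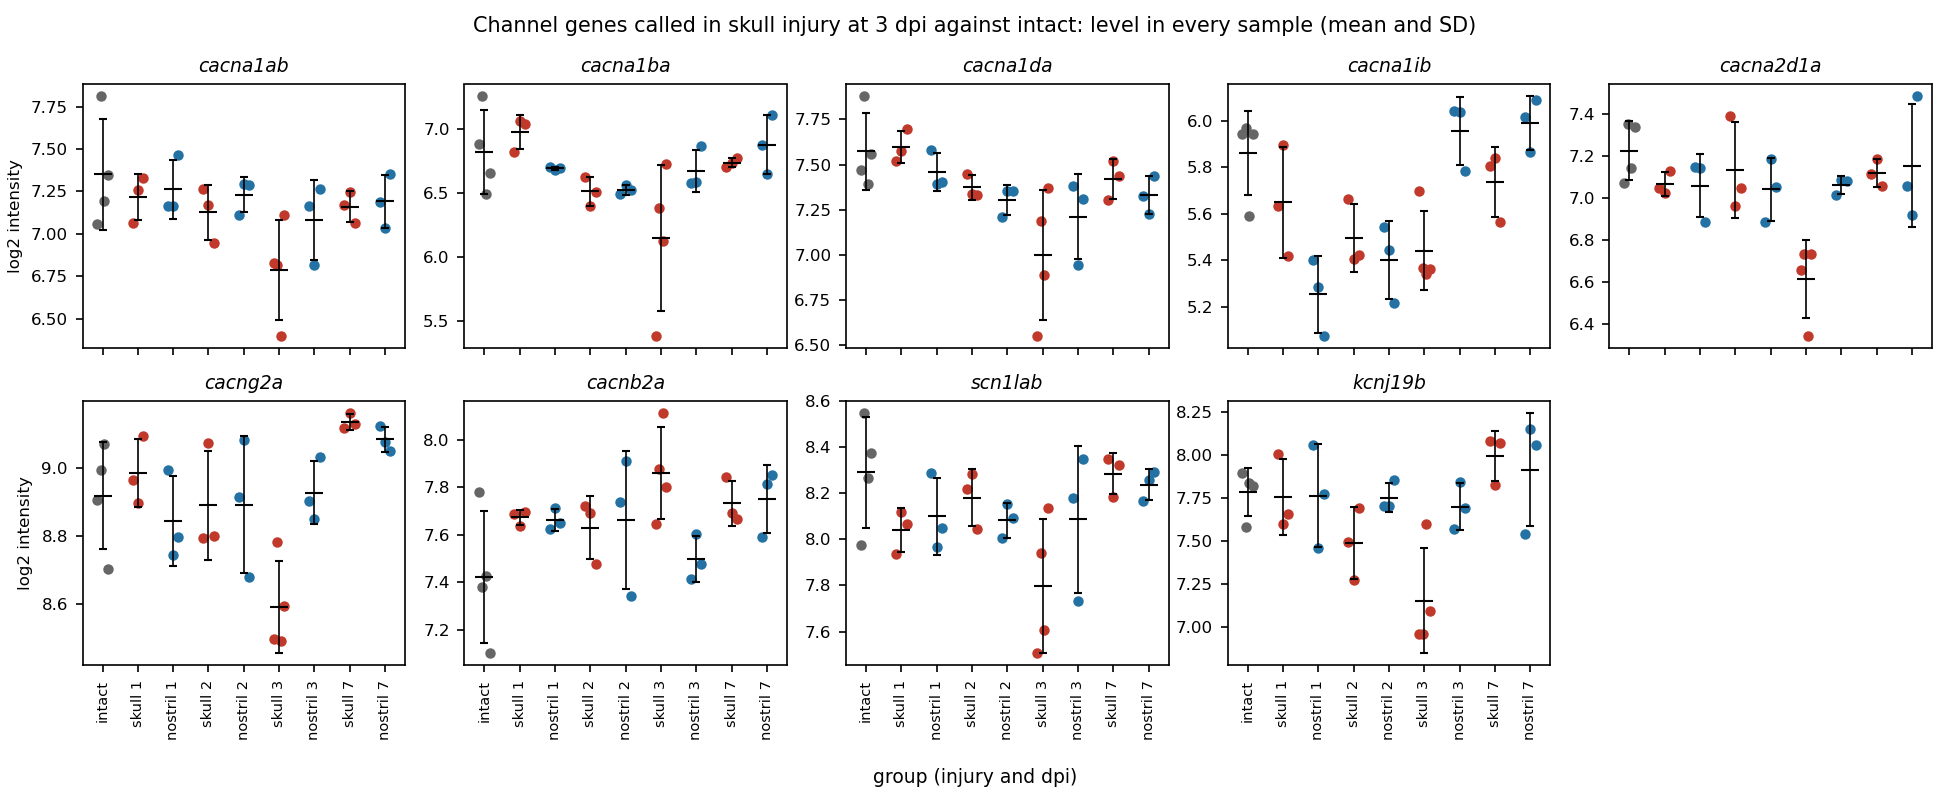
Log2 intensity (y axis) in every sample (points; mean and SD as bars) of the 9 groups (x axis) for the 9 channel genes called in the skull injury at 3 dpi against intact, red for skull, blue for nostril and grey for intact. Only *cacna2d1a* and *cacna1da* have all 4 skull samples of 3 dpi below all intact samples.

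The 4 samples of this group were not alike. Their median difference from the intact mean over the calcium channel genes was -0.27, -0.08, -0.35 and -0.03, and over the potassium channel genes -0.23, -0.02, -0.26 and 0.03, so the first and the third sample were low and the second and the fourth near intact. The same 2 samples were the lowest over all named genes, at -0.10 and -0.09, against 0.04 and -0.01 in the other 2. Leaving out the first or the third sample left 4 and 3 called channel genes, and leaving out the second or the fourth gave 20 and 15, of which 8 and 7 were among the 9. Intact replicate 2 was the highest intact sample in *cacna1ab*, *cacna1ba*, *cacna1da*, *cacna2d1a* and *scn1lab*, and without it 2 genes were called, while without intact replicate 4 there were 5. Fitted on the 2 compared groups alone none of the 9 was called, and with array weights 1 was. How many named genes were called in each of these fits is not given here, so the counts cannot be set against a background.

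Cell type markers moved in the same samples. Of 16 markers of microglia and macrophages 14 rose, their summed linear level lying between 7479 and 10570 in the skull injury at 3 dpi, against 4609 to 6298 in intact samples. Of 13 ependymoglial markers 3 fell, with sums of 10730 to 14440 after injury and 15410 to 19690 in intact. Of 23 neuronal markers 2 rose and 1 fell, with 3 above and 7 below intact at an unadjusted p under 0.05 by limma and a median change of -0.04. Their sums were 19900 to 23650 after injury and 21540 to 25850 in intact. No marker of these lists that had a probe set was under the floor. The part of these shifts in the channel gene values was not tested.

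Between the injuries, the channel genes could be compared at equal days. At 3 dpi 3 of 125, 2.40%, were lower after skull than after nostril injury and none higher, against 3.47% of the named genes called in either direction and 3.59% of all transcripts. Their median was -0.12 and that of the named genes -0.08, and it was -0.05 and -0.07 without the first or the third skull sample and -0.08 without nostril replicate 3. At 1, 2 and 7 dpi limma called no channel gene, with 7 (5.6%), 0 and 2 (1.6%) at an unadjusted p under 0.05, against 7.15%, 1.94% and 2.13% of the named genes. The share of named genes called on those days was 0.0417%, 0% and 0%.

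*kcnk1b*, a TWIK-1 type 2-pore subunit of the resting leak, had 5.95, 6.48, 5.83 and 6.72 after skull injury at 3 dpi, against 6.98, 6.82 and 6.94 after nostril injury (difference -0.67, SE 0.16, adjusted p = 0.0288). *kcnn3*, the SK3 channel that a rise in cell calcium opens, had 7.98, 8.36, 8.22 and 8.45 after skull and 8.57, 8.60 and 8.76 after nostril injury (difference -0.39, SE 0.11, adjusted p = 0.0412). *cacna1ib* had 5.70, 5.37, 5.34 and 5.36 after skull and 6.04, 6.04 and 5.79 after nostril injury (difference -0.51, SE 0.13, adjusted p = 0.0366). In all 3 genes every skull sample lay below every nostril sample, as in 10.5% of the named genes and 8 of the 125 channel genes. Against intact, *kcnk1b* differed by -0.40 after skull and 0.27 after nostril injury and *kcnn3* by -0.29 and 0.10, none of them called. The other 2 probe sets of *cacna1ib* gave 0.14 and 0.09, without a call. Without the first skull sample 1 gene was called in this comparison, 1 of the 3, without the third 1 that was 0 of the 3, and without the second 9 with 3 of the 3, while fitted on the 2 groups alone none was. Without nostril replicate 2 there was 1, among the 3, and without nostril replicate 1 or 3 none. For these fits too the share of named genes called is not given. Of the 13 ependymoglial markers 4 were lower after skull than after nostril injury, with sums of 10730 to 14440 and 17220 to 17960, and their part in these values was not tested.

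**Figure D4:**
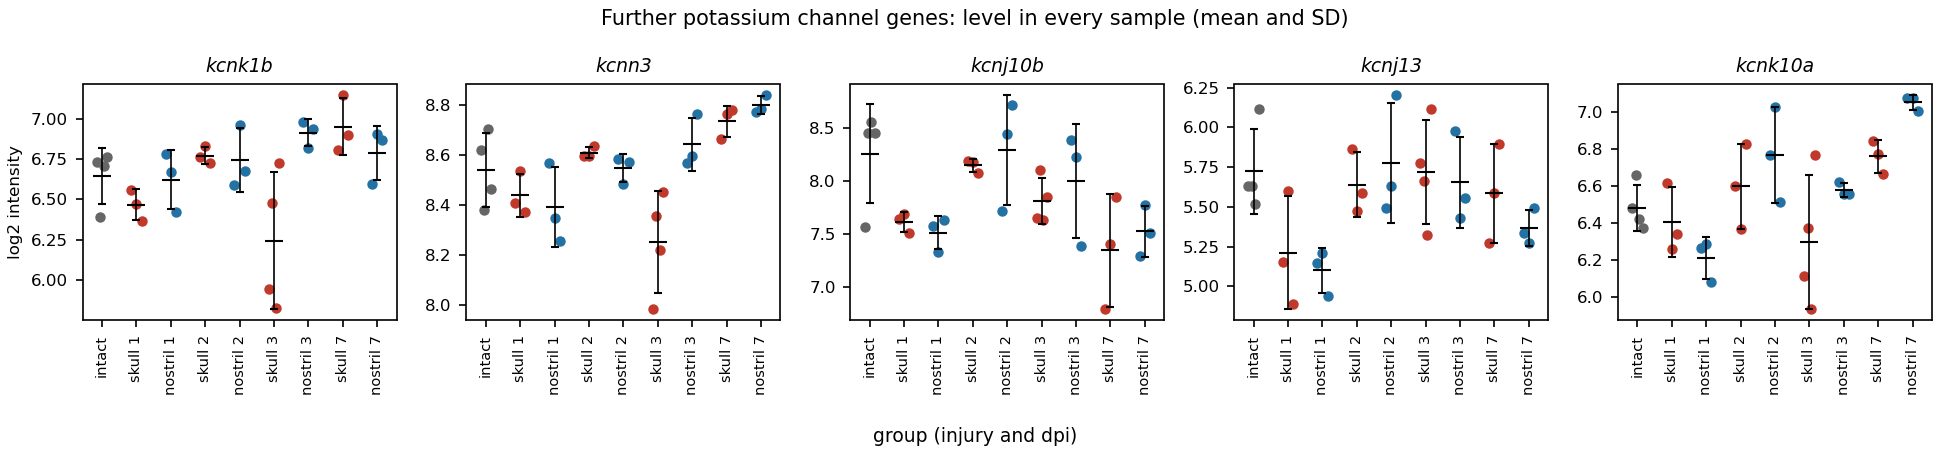
Log2 intensity (y axis) in every sample (points; mean and SD as bars) of the 9 groups (x axis) for 5 potassium channel genes, red for skull, blue for nostril and grey for intact. In *kcnk1b* and *kcnn3* the 4 skull samples of 3 dpi lie below the 3 nostril samples of 3 dpi, and in *kcnj10b* the skull samples of 7 dpi include the lowest value.

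At 7 dpi the channel genes were higher than in intact telencephalon on balance after both injuries. After nostril injury 5 of 125 rose and none fell, 4.0%, against 2.55% of the named genes and 1.75% of all transcripts. After skull injury 1 rose, 0.80%, against 1.07% of the named genes and 0.708% of all transcripts. An unadjusted p under 0.05 was met by 29 genes (23.2%) above and 2 (1.6%) below intact after skull injury, against 12.7% and 4.93% of the named genes. After nostril injury it was met by 25 (20%) above and 2 (1.6%) below, against 12.9% and 6.04% of the named genes. All samples lay above all intact samples in 27 genes (21.6%) after nostril and 26 (20.8%) after skull injury, where 13% and 13.3% of the named genes did so. Both comparisons used the same 4 intact samples. The median of the potassium channel genes was 0.16 after skull and 0.14 after nostril injury, and that of the calcium channel genes 0.08 and 0.11, all of them above 0 with either rescaling of the arrays. Over the 125 genes the median of 0.15 after skull injury was 0.09 without intact replicate 4 and 0.10 without skull replicate 3.

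Of 13 *cacng* genes 2 rose at 7 dpi after nostril injury and 1 after skull injury, with medians of 0.35 and 0.25, and 8 and 6 had an unadjusted p under 0.05 above intact. *cacng8a*, whose mammalian counterpart escorts AMPA receptors in the forebrain, was called after both injuries, with 9.22, 9.31 and 9.26 after skull and 9.17, 9.25 and 9.30 after nostril injury, against 9.02, 8.65, 8.96 and 8.54 in intact samples. The differences were 0.47 (SE 0.11, adjusted p = 0.049) and 0.45 (SE 0.11, adjusted p = 0.0426), without overlap with intact. *cacng4b*, of the same group, had 8.18, 7.86 and 8.10 after skull and 8.28, 8.10 and 7.85 after nostril injury, against 7.43, 7.27, 7.64 and 7.53 in intact. It was called after nostril injury (0.61, SE 0.15, adjusted p = 0.0405) and missed the threshold after skull injury (0.58, adjusted p = 0.0679), both groups lying above all intact samples. *cacng3b* had the differences 0.57 and 0.59, neither called. The 11 alpha1 genes had medians of -0.12 after skull and -0.05 after nostril injury, with no call and no unadjusted p under 0.05.

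Among sodium channel genes *scn3b*, the beta3 auxiliary subunit, had 9.89, 9.73 and 9.56 after skull and 9.78, 9.87 and 9.67 after nostril injury at 7 dpi, against 9.42, 9.41, 9.38 and 9.27 in intact samples. It rose after nostril injury (0.40, SE 0.09, adjusted p = 0.0247), and after skull injury the difference was 0.36 (adjusted p = 0.0605). *scn2b*, the beta2 subunit, had 10.32, 10.33 and 10.22 after skull and 10.29, 10.24 and 10.11 after nostril injury, against 9.94, 9.98, 10.06 and 9.79 in intact, and was not called in either comparison (0.35, adjusted p = 0.0779, and 0.27, adjusted p = 0.145). Both genes lay above all intact samples after both injuries. Over the 5 beta subunit genes the medians were 0.36 and 0.27, and over the 4 alpha subunit genes -0.09 and -0.07. *scn1bb* differed by 0.36 and 0.41 and *scn8ab* by 0.32 and 0.11, without a call.

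The potassium channel genes that rose at 7 dpi were *kcnd3* and *kcnt1a*, both after nostril injury. *kcnd3*, the Kv4.3 pore of the fast inactivating A-type current, had 7.98, 7.65 and 7.76 after skull and 7.91, 7.73 and 7.75 after nostril injury, against 7.30, 7.32, 7.33 and 7.39 in intact samples, a difference of 0.46 in both (SE 0.12), with an adjusted p of 0.0613 for skull and 0.0451 for nostril injury. The samples of both injuries lay above the 4 intact samples. *kcnip1b*, a partner of Kv4 pores, had 9.33, 9.20 and 9.20 after skull and 9.22, 9.35 and 9.06 after nostril injury, against 8.97, 8.78, 8.87 and 8.96 in intact, above the intact samples in both but not called (0.35, adjusted p = 0.0695, and 0.32, adjusted p = 0.0737). *kcnt1a*, the Slack channel that cell sodium opens, had 10.06, 10.11 and 10.10 after skull and 10.21, 10.07 and 10.27 after nostril injury, against 9.81, 9.93, 9.63 and 9.36 in intact, and differed by 0.41 (adjusted p = 0.125) and 0.50 (SE 0.13, adjusted p = 0.0456). *kcnk10a*, a TREK-2 type leak channel, had 6.84, 6.77 and 6.67 after skull and 7.08, 7.08 and 7.01 after nostril injury, against 6.48, 6.66, 6.42 and 6.37 in intact, and missed the threshold after nostril injury at 0.57 (adjusted p = 0.0561). The direct comparison of skull with nostril injury at 7 dpi called none of these genes. Leaving out any 1 of the 7 samples of the nostril comparison with intact ended the limma call of *kcnd3*, with adjusted p of 0.0703 to 0.196. For *kcnt1a* 5 of the 7 did so.

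**Figure D5:**
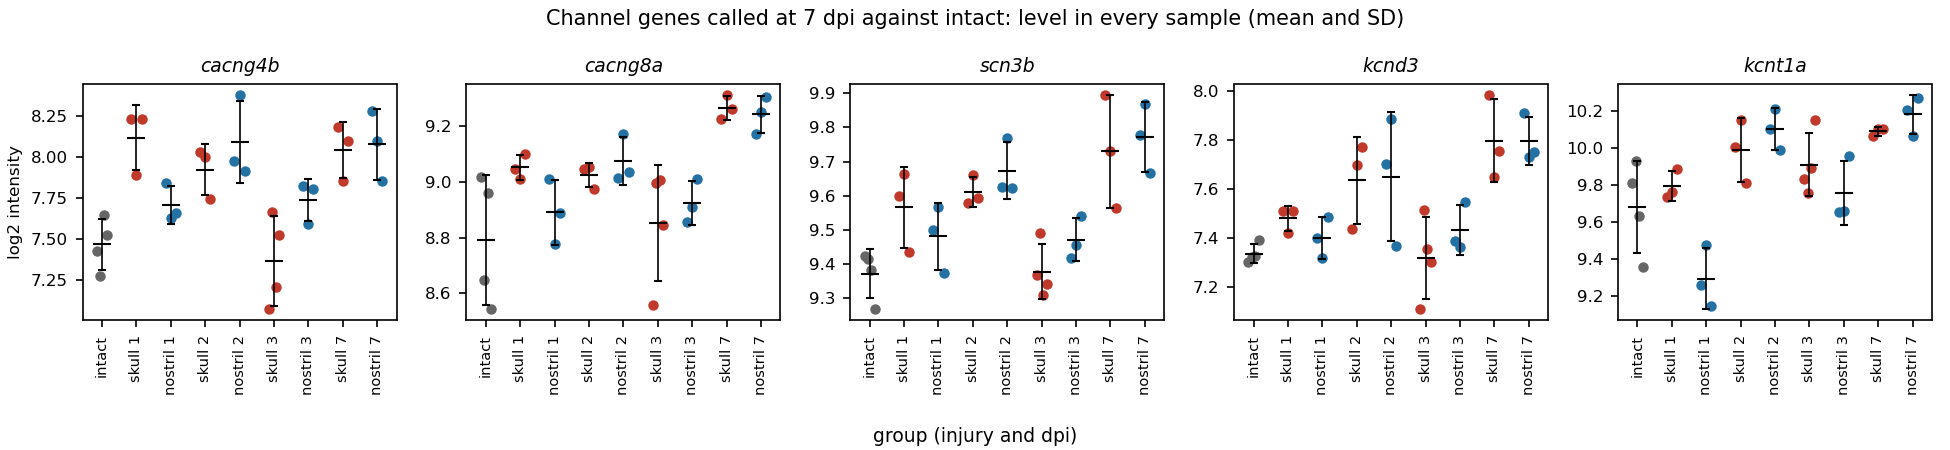
Log2 intensity (y axis) in every sample (points; mean and SD as bars) of the 9 groups (x axis) for the 5 channel genes called at 7 dpi against intact, red for skull, blue for nostril and grey for intact. In all 5 the samples of both injuries at 7 dpi lie above the 4 intact samples.

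The neuronal markers moved the same way at 7 dpi. Their summed linear level was 26690 to 28140 after skull and 25640 to 27980 after nostril injury, against 21540 to 25850 in intact samples, and their median change was 0.18 and 0.15, beside 0.15 and 0.14 over the channel genes. Of the 23 markers 1 rose after nostril and none after skull injury by limma, with 8 and 10 at an unadjusted p under 0.05, all above intact. The sums of the ependymoglial markers were 15130 to 15380 after skull and 13810 to 16050 after nostril injury, against 15410 to 19690 in intact. The part of these shifts in the channel gene values was not tested. At 2 dpi the neuronal markers had median changes of 0.1 after skull and 0.108 after nostril injury, beside 0.045 and 0.029 over the channel genes. The calls at 7 dpi were near the threshold. After nostril injury none was left without intact replicate 4, nostril replicate 1 or nostril replicate 2, 1 without intact replicate 2, 2 without nostril replicate 3 and 3 without intact replicate 3. Fitted on the compared groups alone none was called after either injury, and when the 4 samples of the skull injury at 3 dpi did not enter the model 9 were called after skull and 8 after nostril injury. After skull injury none was left without intact replicate 2 or 4 or any one of the 3 skull samples, and 2 were called without intact replicate 1. The shares of named genes called in these refits and without single samples are not given here, so these counts have no background.

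At 1 dpi each injury gave 1 call. After nostril injury *cacna1ib* fell, with 5.40, 5.29 and 5.07 against 5.94, 5.97, 5.59 and 5.94 in intact samples (difference -0.61, SE 0.13, adjusted p = 0.0243), and no sample overlapped. The 2 other probe sets of the gene gave -0.13 and -0.43, neither called, and with the mean of the 3 the call was lost (-0.39, adjusted p = 0.293). After skull injury *cacng4b* rose, with 8.23, 7.89 and 8.23 against 7.43, 7.27, 7.64 and 7.53 in intact samples (difference 0.65, SE 0.15, adjusted p = 0.0429), again without overlap. These single calls are 0.80% of the 125 genes each, where 1.17% and 0.836% of the named genes and of all transcripts were called after nostril and 0.946% and 0.612% after skull injury. Of the 125 genes 7.2% lay below all intact samples after nostril injury and 6.4% above them after skull injury. The matching shares of the named genes are not given here, so the lack of overlap was not set against a background. Intact replicates 1, 2 and 4 each decided both calls, as did nostril replicates 2 and 3 for *cacna1ib* and skull replicates 1 and 3 for *cacng4b*, since leaving any one of them out raised the adjusted p to at most 0.152 in *cacna1ib* and 0.234 in *cacng4b*, above the threshold. Beside these calls, 10 of 16 microglia and macrophage markers rose and 1 fell at 1 dpi after skull injury, and 3 of 6 red blood cell markers rose. None of 23 neuronal markers was called there, with 6 above and 0 below intact at an unadjusted p under 0.05 by limma. Their sums were 24020 to 26740 after skull injury, against 21540 to 25850 in intact. In the nostril group 0 neuronal markers were above and 1 below, with sums of 22260 to 23400. After nostril injury 5 of the 16 microglia and macrophage markers rose and 1 fell, with sums of 5736 to 7614 against 4609 to 6298 in intact, and 1 of the 13 ependymoglial markers rose, with sums of 16840 to 18140 against 15410 to 19690. The part of these markers in the calls was not tested.

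No channel gene was called by limma at 2 dpi after either injury or at 3 dpi after nostril injury, where 0.751%, 0.397% and 0.0696% of the named genes were called after nostril injury at 2 dpi, skull injury at 2 dpi and nostril injury at 3 dpi. An unadjusted p under 0.05 was met by 17, 11 and 10 of the 125 genes, 13.6%, 8.8% and 8.0%, against 14.6%, 9.7% and 6.63% of the named genes. *cacng4b* was above all intact samples at 2 dpi too, with 8.03, 8.0 and 7.74 after skull and 7.98, 8.38 and 7.92 after nostril injury, and differences of 0.46 (adjusted p = 0.321) and 0.62 (adjusted p = 0.0613). At 3 dpi its difference from intact was -0.10 after skull and 0.27 after nostril injury, with samples of both groups inside the intact range. At 2 dpi 6.4% of the 125 channel genes lay above all intact samples after skull injury and 4.8% after nostril injury. The shares of the named genes that did so are not given here, so these figures have no background. *kcnt1a* had -0.39 at 1 dpi and 0.42 at 2 dpi after nostril injury, neither called.

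The remaining genes named by rule were described but not called. *kcnq3*, a subunit of the M-current that damps repeated firing, was below all intact samples in 6 of the 8 injury groups, with differences of -0.52 to -0.26 there, the largest after skull injury at 2 dpi (6.82, 6.86 and 7.09, against 7.40, 7.75, 7.40 and 7.24 in intact; adjusted p = 0.329). In the skull injury at 3 dpi it was at 0.12. All 8 differences share the 4 intact samples, and they come from the brighter of 2 probe sets above the floor. The other probe set gave -0.15 to 0.32 in the 7 other groups and was lower in the skull injury at 3 dpi, both than intact (-0.56, adjusted p = 0.0441) and than nostril injury (-0.69, adjusted p = 0.0377, against 0.46 by the brighter one). The 2 probe sets differ in sign in most groups, so the direction of *kcnq3* is not settled. *scn4bb*, a beta4 subunit, was above all intact samples in 5 groups, with differences up to 0.68 after skull injury at 1 dpi (5.76, 5.62 and 5.62, against 4.88, 4.91, 5.10 and 5.05 in intact, adjusted p = 0.302). In single injury groups 1.6% to 7.2% of the 125 channel genes lay below all intact samples and 1.6% to 21.6% above them. Over the named genes such shares are given only below intact at 3 dpi after skull injury and above intact at 7 dpi. How often named genes lay outside the intact range in several groups was not counted, so these repeats have no background. *cacnb4b* at 2 dpi after nostril injury (0.22), the EAG-type gene *kcnh8* in the same group (-0.53), *kcna1a* (0.33), *kcnk13a* (0.48) and *kcnip3a* (0.34) at 7 dpi after skull injury, *kcnab1a* at 2 dpi after skull injury (0.30), *scn4ba* at 2 dpi after nostril injury (0.27) and the 2 members nearest the floor, *cacna2d3a* (-0.26) and *scn1laa* (-0.29) at 1 dpi after nostril injury, had adjusted p of 0.139 to 0.741 in those comparisons.

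Several inward rectifiers are known from cells other than neurons. *kcnj10a* and *kcnj8*, Kir4.1 and the Kir6.1 known from mural cells, were low on the array, with intact means of 4.72 and 4.47, and were not called in any group. The other Kir4.1 gene, *kcnj10b*, chosen after its values were seen, had the most negative difference of the 125 genes from intact at 7 dpi after both injuries and at 1 dpi after nostril injury. At 7 dpi it had 6.79, 7.40 and 7.85 after skull and 7.29, 7.78 and 7.51 after nostril injury, against 7.56, 8.46, 8.56 and 8.45 in intact samples, and differed by -0.91 (SE 0.26, adjusted p = 0.099) and -0.73 (adjusted p = 0.156). Intact replicate 1 lay far below the other 3 and inside the injured range, so that the groups overlapped. At 1 dpi the differences were -0.64 after skull and -0.74 after nostril injury and at 2 dpi -0.11 and 0.04, none called. Also chosen after their values were seen were *kcnj13*, the Kir7.1 gene known for zebrafish stripe mutants, with 5.15, 5.21 and 4.94 after nostril injury at 1 dpi against 5.63, 5.63, 5.52 and 6.12 in intact (-0.62, adjusted p = 0.215), and *kcnj2a*, a Kir2.1 gene, with 6.02, 6.0 and 6.08 after skull injury at 1 dpi against 6.57, 7.12, 6.53 and 7.17 in intact (-0.81, adjusted p = 0.154). Neither overlapped intact and neither was called. At 1 dpi 7.2% of the 125 channel genes lay below all intact samples after nostril injury and 4.8% after skull injury. Without the shares of the named genes on that day, the lack of overlap cannot be judged against a background.

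Other genes of ion transport were followed in the same fit. Of 33 tested pump and cotransporter genes 4 fell in the skull injury at 3 dpi and none rose, the sodium pump subunits *atp1a1b* (-0.55, adjusted p = 0.017), *atp1b1a* (-0.45, adjusted p = 0.0365) and *atp1b3b* (-0.42, adjusted p = 0.017) and the potassium-chloride cotransporter *slc12a7b* (-0.54, adjusted p = 0.0275). In that comparison 6.99% of the named genes were called in either direction. Of the 4 pump and cotransporter genes, *atp1b1a* (-0.64) and *atp1b3b* (-0.43) were also lower after skull than after nostril injury at 3 dpi. There 3.47% of the named genes were called. The median of the 33 pump and cotransporter genes in the skull injury at 3 dpi was -0.16. At 7 dpi it was -0.07 after skull and -0.09 after nostril injury, with no call by limma and with 5 and 4 genes below intact at an unadjusted p under 0.05. Of 36 other channel and transport genes *ryr1b*, a calcium release channel, fell in the skull injury at 3 dpi (-0.64, adjusted p = 0.0481). In that list *tmem175*, a potassium channel of endosomes and lysosomes (0.76), *ano10a* (0.59) and the endosomal chloride transporter *clcn6* (0.53) rose at 7 dpi after nostril injury. In that comparison 2.55% of the named genes were called. Of the 36 genes 5 were above and 5 below intact at an unadjusted p under 0.05 by limma. *trpv1*, whose mammalian counterpart is the capsaicin receptor, rose at 1 dpi after skull injury (1.1, SE 0.16, adjusted p = 0.000607), where 0.946% of the named genes were called. Of 33 genes that cluster channels or join them 1 was called in any comparison, *lgi1a*, lower after skull than after nostril injury at 3 dpi (-0.37, adjusted p = 0.0416), and their medians at 7 dpi were 0.13 after skull and 0.12 after nostril injury.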

How the data were processed

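RNA of whole telencephalon was hybridised to Affymetrix Zebrafish Gene 1.0 ST arrays. The authors summarised the probes to log2 expression values by RMA in Affymetrix Expression Console 1.3 and deposited 1 log2 value for each of 75212 probe sets and 30 arrays. RMA evens out the arrays and compresses small differences between dim probe sets. No reads were counted, so the number of samples limits the precision. Symbols came from the array annotation, where 20806 probe sets had 1 symbol, 855 several and 53551 none. For genes with several probe sets the one with the highest mean was used. Cross-hybridisation between a and b paralogs was not checked.

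The 2 arrays of intact replicate 1 were averaged, which gave 29 samples in 9 groups. A linear model with a mean for each group was fitted to all probe sets with limma 3.58.1 (lmFit, eBayes) in R 4.3.3, as 8 comparisons of injury with intact and 4 of skull with nostril injury, and p-values were adjusted by Benjamini-Hochberg over the 40670 probe sets with a group mean above 4.32. The fit was tested on simulated data. Figures were drawn with matplotlib 3.10.9 in Python 3.11.15.

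Named are up to 6 called genes in each direction and comparison by smallest p, the gene of each subfamily with the smallest F test p, a list of textbook brain and glial channel genes, the genes next to the floor, and those that differed between the injuries. The members and lists were chosen with earlier results of these data known. Alternatives changed the samples in the fit, array weights, scaling, the floor, a replicate block, the technical array, the variance prior, the probe set rule and the criteria of a call, and left out each replicate in turn.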

Additional observations from a re-analysis of the deposited data

Results flagged for a closer look

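In the groups of 4 samples, 82 tests for a sample far from the others were made, and chance flags about 1 in 20 such groups. The probe set of *cacna1ib* was flagged in both, with skull replicate 1 high at 3 dpi (5.70, against 5.34 to 5.37 in the other 3, a gap of 0.927 of the range) and intact replicate 3 low (5.59, against 5.94 to 5.97, a gap of 0.932). *kcnip1b* was low in skull replicate 1 at 3 dpi (9.0, against 9.13 to 9.15 in the others, ratio 0.869), and *scn4ba* was high in skull replicate 2 at 3 dpi (5.62, against 5.21 to 5.27, ratio 0.842). *kcnk1b* was low in intact replicate 2 (6.39, against 6.71 to 6.76, ratio 0.849).

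The effect of the injury at 3 dpi differed between skull and nostril injury in 3 genes by limma's test of the difference itself, with skull minus nostril at -0.67 for *kcnk1b*, -0.51 for *cacna1ib* and -0.39 for *kcnn3*. All 4 skull samples lay below all 3 nostril samples in each, as in 10.5% of the named genes. The other 2 probe sets of *cacna1ib* gave 0.14 and 0.09, without a call, so its difference rests on 1 probe set. Of the 7 samples left out in turn, 5 ended the call of *cacna1ib*, 4 that of *kcnk1b* and 5 that of *kcnn3*.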

How the results depend on the processing

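No called value changed sign under any alternative that was run, but counts of calls moved. The shares of named genes called under the alternatives or without a replicate are not given here, so these counts have no background. Fitted on the compared groups alone, 0 channel genes were called at 1 dpi after nostril injury (1 in the fit of all groups), 0 at 3 dpi after skull injury (9), 0 at 7 dpi after skull (1) and 0 after nostril injury (5), and 0 between the injuries at 3 dpi (3). With the skull injury at 3 dpi left out, 1 was called at 2 dpi after nostril injury (0), and 9 (skull) and 8 (nostril) at 7 dpi. Array weights gave 0 at 1 dpi after nostril injury, 1 at 3 dpi after skull injury, 9 (skull) and 8 (nostril) at 7 dpi, and 0 between the injuries at 3 dpi. Quantile normalisation gave 0 at 1 dpi and 0 at 7 dpi after skull injury and 1 between the injuries at 3 dpi, and centring on the median 0, 3 and 5. Without the floor there were 0 at 1 dpi, 4 at 3 dpi and 0 at 7 dpi after skull injury, 1 at 7 dpi after nostril injury and 1 between the injuries at 3 dpi. The first technical array alone gave 1 at 2 dpi after nostril and 3 at 7 dpi after skull injury, the variance prior with trend 6 at 7 dpi after skull injury and 5 between the injuries at 3 dpi, and the mean of all probe sets 0 at 1 dpi after nostril injury. The criteria of the study, an unadjusted p and a fold threshold, gave 2 at 1 dpi and 0 at 3 dpi after skull injury, 1 at 7 dpi after nostril injury (*kcnj10b*, lower) and 1 between the injuries at 3 dpi (*kcnj1b*, lower), and 0 of these genes were among those called in the same comparison by adjusted p. *kcnj10b* met these criteria, lower than intact, also at 7 dpi after skull injury (-0.91) and at 1 dpi after nostril injury (-0.74). Over the channel genes named by rule, under all alternatives, 630 values kept their side of the threshold, 174 lost a call and 21 gained one. The cause of these shifts was not tested.

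Leaving out 1 replicate gave 0 to 1 calls at 1 dpi after either injury, 2 to 20 at 3 dpi after skull injury, 0 to 2 (skull) and 0 to 4 (nostril) at 7 dpi, 0 to 9 between the injuries at 3 dpi and 0 to 0 in the other 6 comparisons.

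With the replicate number as a block, 0 genes were called after skull injury at 1 dpi, 0 (skull) and 3 (nostril) at 7 dpi, 1 of the 3 shared with the 5, and the other counts stayed within 1.5 times. Of 109 pairs of samples with the same number 6 correlated above 0.1 in their deviations from the group mean (median -0.002, highest 0.206), and 7 samples correlated best with their own number. No pairing by number was seen, but groups of 3 or 4 samples cannot exclude one.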
